A study of Mus musculus with 5 samples.

Results

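The transcription factors that start and then maintain the endocrine programme of the pancreas were examined in whole pancreata of neonatal mice, on 5 Mouse Gene 1.0 ST arrays with 1 array per mouse. They comprise 10 genes, grouped by their role and chosen with earlier results of these data known. Neurog3, Fev and Myt1 stand for the progenitor stage. Neurod1, Nkx2-2, Pax6, Isl1, Rfx6, Insm1 and St18 are factors that endocrine cells go on using. A probe set belonged to a gene when the platform annotation gave it that symbol and no other, and 9 of the 10 genes had 1 such probe set each, out of 19938 genes tested. No probe set carried the symbol Fev in the annotation used here, so Fev was not analysed here.

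The tissue came from 3 Pdx1cKO mice (Elastase-Cre, Pdx1 loxP), labelled as carrying a knock out of Pdx1 made by Elastase-Cre, and from 2 control mice labelled as not recombinated, all at postnatal day 1. The title of the series places both genotypes in a single litter. Elastase-Cre is directed at exocrine cells, and neither the share of recombined cells nor any recombination in endocrine cells was measured on the arrays. The comparison asks what the exocrine deletion did to transcripts of the whole organ. Whole tissue was hybridised, so fewer endocrine cells, less RNA per cell and a changed share of other tissues in the RNA cannot be told apart.

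Endocrine cells of the islets arise from duct-like trunk epithelium, where Notch signals hold most cells back and a few switch on the basic helix-loop-helix factor Neurog3 for a short time. Neurog3 activates a next tier that includes the related factor Neurod1, the zinc finger proteins Insm1 and Myt1, and the winged helix factor Rfx6, after which Neurog3 is shut off. The homeodomain factors Nkx2-2, Pax6 and Isl1 then stay on in hormone-producing cells and help to drive hormone genes. By birth the main wave of Neurog3 expression has passed.

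Neurog3 and Neurod1 bind the E-box, a short element spelled CANNTG that reads the same way in both strands. Upstream sequences of Neurog3 and of the 3 factors with the smallest p between the groups are shown for that reason, each being the 250 bases before an annotated start in RefSeq (GRCm38.p6), written 5′ to 3′ on the gene's strand with every E-box in capitals. They lie at chr10:62132840-62133089 (plus strand) for Neurog3, chr2:147186403-147186652 (minus strand) for Nkx2-2, chr2:105668646-105668895 (plus strand) for the more upstream of the Pax6 starts, and chr10:51685268-51685517 (plus strand) for Rfx6.
Neurog3: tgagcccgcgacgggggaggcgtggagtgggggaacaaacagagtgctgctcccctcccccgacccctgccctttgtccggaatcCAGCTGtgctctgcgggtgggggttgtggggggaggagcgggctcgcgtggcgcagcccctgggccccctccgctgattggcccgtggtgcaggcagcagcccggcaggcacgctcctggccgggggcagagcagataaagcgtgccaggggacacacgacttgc
Nkx2-2: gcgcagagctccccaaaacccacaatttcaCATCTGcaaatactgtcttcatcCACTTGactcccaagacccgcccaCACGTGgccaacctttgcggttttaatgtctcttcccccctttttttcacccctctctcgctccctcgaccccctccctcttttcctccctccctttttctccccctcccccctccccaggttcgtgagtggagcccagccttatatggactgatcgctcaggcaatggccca
Pax6: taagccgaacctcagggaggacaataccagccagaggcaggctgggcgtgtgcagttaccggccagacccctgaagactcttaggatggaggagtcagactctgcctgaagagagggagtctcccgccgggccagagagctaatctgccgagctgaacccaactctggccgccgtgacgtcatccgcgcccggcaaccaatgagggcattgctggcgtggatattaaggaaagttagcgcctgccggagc
Rfx6: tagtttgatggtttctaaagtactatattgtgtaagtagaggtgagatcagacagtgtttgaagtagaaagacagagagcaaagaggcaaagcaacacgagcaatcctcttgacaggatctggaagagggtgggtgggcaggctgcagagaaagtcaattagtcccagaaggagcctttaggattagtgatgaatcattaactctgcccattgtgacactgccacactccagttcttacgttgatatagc
The Nkx2-2 sequence held 3 E-boxes, of which CATCTG is the reverse complement of CAGATG, a form that Neurod1 favours. Neurog3 held 1 E-box, these windows of Pax6 and Rfx6 held 0, and the window of the other Pax6 start held 1. The Nkx2-2 and Rfx6 windows precede starts inside the annotated genes, which span chr2:147176485-147195434 and chr10:51677760-51730429. Over all 32851 promoters of the same length, 66.2% held at least 1 E-box, 12.2% held 3 or more, and 14.4% held CAGATG or CATCTG. RefSeq promoters were matched for 8 of the 10 factors, Insm1 and St18 having no entry, and 7 of their 11 windows held an E-box. These matches describe the letters in the windows and nothing about binding in this tissue.

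The arrays differed in tissue content, which bears on factors that other organs also make. Control 2 carried stomach transcripts: the summed intensity of 11 measured stomach genes was 818 to 1061 in Pdx1cKO mice, against 575 in control 1 and 20380 in control 2. Liver genes (9 measured) summed to 18626 to 46439 in Pdx1cKO mice and to 6048 and 7567 in controls, and the 12 measured neuronal genes to 4203, 1851 and 3758 in Pdx1cKO mice 1, 2 and 3 and to 1573 and 2045 in controls. Acinar genes (8 measured) summed to 8780, 10260 and 13985 in Pdx1cKO mice 1, 2 and 3 and to 42529 and 31860 in controls 1 and 2. Pdx1 itself had intensities of 48.4, 48.4 and 42.9 in Pdx1cKO pancreata and 67.9 and 112.7 in controls. Islet hormones marked the endocrine tissue as present in every array, with Gcg, the glucagon gene, at 1508, 1127 and 1104 in Pdx1cKO mice and 2594 and 2650 in controls.

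In the Pdx1cKO pancreata 6 of the 9 measured factors had values below those of both controls in all 3 mice: Neurog3, Neurod1, Nkx2-2, Pax6, Rfx6 and St18. None was above both controls in all 3. Of all 19938 genes, 11.7% were below both controls in the same way and 12.0% above. Against control 1 alone 6 of the 9 factors were lower in every Pdx1cKO mouse, beside 33.3% of genes, and against control 2 alone 7 of the 9, beside 28.0%. The median log2 fold change of the 9 factors was -0.38, against -0.00117 over all genes. After Benjamini-Hochberg adjustment over all genes limma called 0 factors lower and 0 higher, as it called 0.0% of genes in each direction. At an unadjusted limma p under 0.05, Nkx2-2, Pax6 and Rfx6 were lower and 0 factors higher, beside 5.04% of all genes lower and 5.29% higher.

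**Figure D1:**
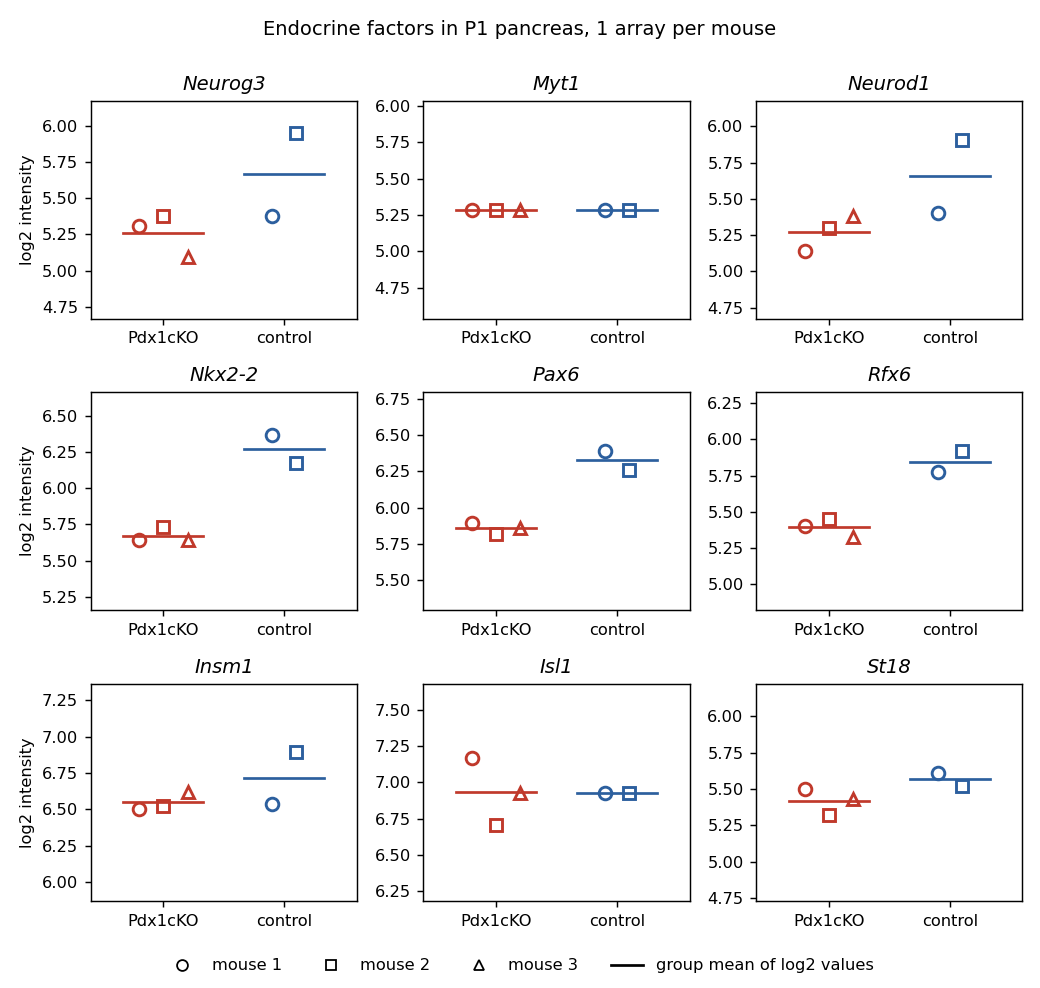
Log2 intensity (y axis) of each measured factor in the 3 Pdx1cKO mice (red) and the 2 control mice (blue), with symbols for the mouse and lines for group means; every panel spans the same log2 range. Nkx2-2, Pax6 and Rfx6 separate the groups widely, Neurog3 and Neurod1 are high in control 2, and Myt1 has a single value in all 5 arrays.

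Neurog3, the switch of the endocrine lineage (probe set 10363545), had intensities of 39.6, 41.5 and 34.1 in Pdx1cKO mice 1, 2 and 3, against 41.6 and 61.7 in controls 1 and 2. All Pdx1cKO values lay below both controls, but Pdx1cKO mouse 2 and control 1 almost touched, and the gap rested on control 2. The log2 fold change was -0.41 (95% confidence interval -1.03 to 0.21, standard error 0.216, limma adjusted p = 0.515). It was -0.12 against control 1 alone and -0.69 against control 2 alone, and neither passed (limma adjusted p = 0.839 and 0.124). Neurog3 is also made by endocrine precursors of the stomach and gut, and control 2 was the array with stomach transcripts, among them the gastrin gene Gast at 42.0 to 45.3 in Pdx1cKO mice, 45.3 in control 1 and 247 in control 2. Over the 11 measured gut endocrine genes, which include Gast and Neurog3, the median of control 2 minus control 1 was 0.23 on the log2 scale. Hdc, also in that list, went the other way. It was at 405.5, 352.3 and 314.9 in Pdx1cKO mice 1, 2 and 3, 184.5 in control 1 and 86.5 in control 2. The part of stomach tissue in the Neurog3 values was not tested.

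Myt1, which Neurog3 induces and which in turn supports Neurog3 expression (probe set 10479698), had an intensity of 39.0 in each of the 5 arrays, identical to every digit deposited. Of the 19938 genes, 808 (4.05%) had the same log2 value in all 5 arrays to 8 decimals, and 3 or more arrays shared a value in 40.3%. The log2 fold change of Myt1 was 0.00 by construction of these values, and no difference in its level could be read in either direction.

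Neurod1, the basic helix-loop-helix factor next in line after Neurog3 (probe set 10484276), had intensities of 35.2, 39.3 and 41.7 in Pdx1cKO mice 1, 2 and 3, against 42.4 and 59.9 in controls 1 and 2. As with Neurog3, the highest Pdx1cKO value came close to control 1 and control 2 stood apart. Its log2 fold change was -0.38 (95% confidence interval -0.92 to 0.16, standard error 0.188, limma adjusted p = 0.515), which became -0.13 against control 1 alone and -0.63 against control 2 alone. Insm1, a zinc finger repressor needed for endocrine differentiation (probe set 10476814), had 90.8, 92.0 and 98.1 in Pdx1cKO mice and 93.0 and 119.3 in controls. Here the groups overlapped, since Pdx1cKO mouse 3 was above control 1. The log2 fold change of Insm1 was -0.17 (95% confidence interval -0.54 to 0.20, limma adjusted p = 0.520) and turned to 0.01 against control 1 alone. Neurog3, Neurod1 and Insm1 were each higher in control 2 than in control 1, by 0.57, 0.50 and 0.36 on the log2 scale. Rfx6 was also higher there, by 0.14. The same difference was -0.20 for Nkx2-2, -0.13 for Pax6, -0.09 for St18 and 0.0 for Myt1 and Isl1. The part of stomach tissue in these values was not tested.

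Nkx2-2, a homeodomain factor without which beta cells do not form (probe set 10488366), had intensities of 50.1, 53.0 and 49.96 in Pdx1cKO mice 1, 2 and 3, against 82.5 and 72.0 in controls 1 and 2. The Pdx1cKO mice lay close together and well below both controls, at 66.2% of the control level by geometric means. The log2 fold change was -0.60 (95% confidence interval -0.81 to -0.38, standard error 0.0741, limma adjusted p = 0.205). Only 2.29% of all genes lay further below 0 than this. Nkx2-2 was lower in control 2 than in control 1, with a log2 difference of -0.20. The part of stomach tissue in the Nkx2-2 values was not tested.

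Pax6, a paired domain factor that activates hormone genes in islet cells (probe set 10474312), had intensities of 59.6, 56.3 and 58.2 in Pdx1cKO mice, against 84.0 and 76.6 in controls 1 and 2. It showed the same arrangement as Nkx2-2, at 72.3% of the control level. The log2 fold change was -0.47 (95% confidence interval -0.62 to -0.31, standard error 0.0537, limma adjusted p = 0.191), and 3.26% of genes lay further below 0. Rfx6, a factor required for most islet cell types (probe set 10363090), had intensities of 42.4, 43.7 and 40.1 in Pdx1cKO mice, against 54.8 and 60.4 in controls. Its groups were also clearly apart, at 73.1% of the control level and a log2 fold change of -0.45 (95% confidence interval -0.64 to -0.27, standard error 0.0641, limma adjusted p = 0.228).

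These 3 factors were the ones whose calls changed when a control was left out, in fits that take the spread from the Pdx1cKO mice only, as a single control has none. Against control 1 alone Nkx2-2 and Pax6 passed (limma adjusted p = 0.0215 and 0.0246) and Rfx6 did not (limma adjusted p = 0.0872), where 10.4% of all genes were called lower. Against control 2 alone all 3 passed (limma adjusted p = 0.0361, 0.0382 and 0.0498 for Nkx2-2, Pax6 and Rfx6), where 8.94% of genes were called lower. Against controls 1 and 2 alone their log2 fold changes were -0.69 and -0.50 for Nkx2-2, -0.54 and -0.40 for Pax6, and -0.38 and -0.52 for Rfx6. These 3 had the smallest p of the factors, which favours genes whose controls lie close together.

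**Figure D2:**
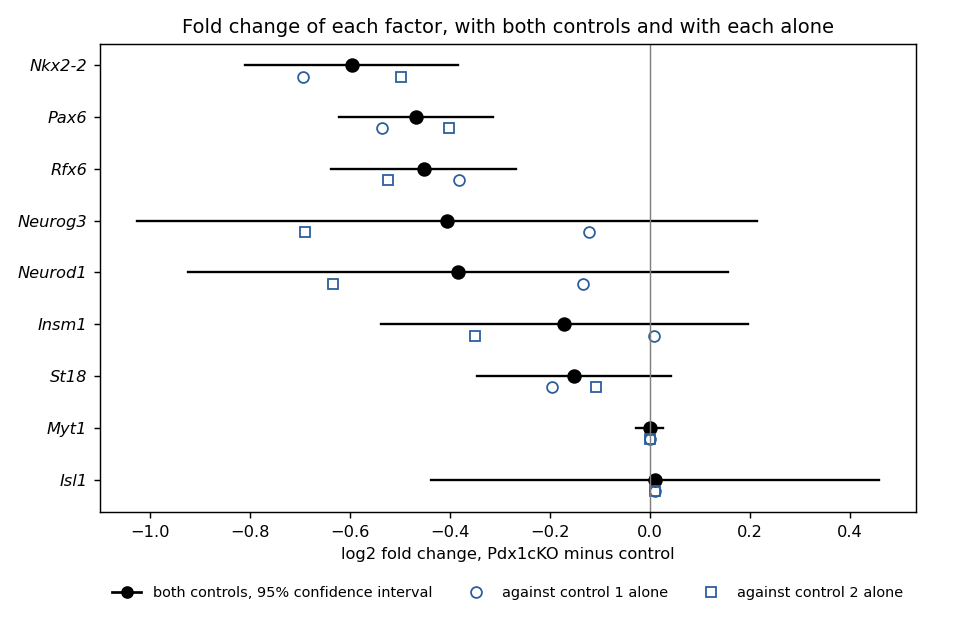
Log2 fold change of each measured factor (x axis), Pdx1cKO minus control, with both controls (black points, lines for the 95% confidence interval from limma) and against each control alone (open blue symbols). The intervals of Nkx2-2, Pax6 and Rfx6 lie wholly below 0, and the values of Neurog3, Neurod1 and Insm1 depend on which control is used.

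Isl1, a LIM homeodomain factor of islet cells that sympathetic neurons and gut mesenchyme also make (probe set 10412335), had intensities of 144.1, 104.7 and 121.5 in Pdx1cKO mice 1, 2 and 3, against 121.5 in both controls. Pdx1cKO mouse 3 shared the exact value of the controls, and the other Pdx1cKO mice lay on either side of it. The log2 fold change was 0.01 (95% confidence interval -0.44 to 0.46, limma adjusted p = 1.0). Neuronal transcripts were high in Pdx1cKO mice 1 and 3, the first with the highest Isl1 and the other with the control value of Isl1. Dbh, the enzyme that makes noradrenaline, was at 560, 62.7 and 355 in Pdx1cKO mice 1, 2 and 3 and at 46.8 and 36.1 in controls, while Hand2, a sympathetic neuron factor, was at 218, 192 and 251 and at 159.5 and 177. Of the 12 measured neuronal genes, 5 were above both controls in all 3 Pdx1cKO mice and 0 below, beside 12.0% and 11.7% of all genes. Ret and Elavl4 went the other way, with log2 fold changes of -0.35 and -0.14. The part of neural tissue in the Isl1 values was not tested. St18, a zinc finger factor of the Myt1 family (probe set 10344679), had intensities of 45.2, 40.0 and 43.1 in Pdx1cKO mice, against 48.9 and 46.0 in controls. The groups did not overlap but were close, at a log2 fold change of -0.15 (95% confidence interval -0.35 to 0.04, limma adjusted p = 0.515).

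Set by stage, the median log2 fold change was -0.20 for the 2 measured progenitor factors and -0.38 for the 7 lasting factors, a difference of 0.18. In single mice it was 0.25, 0.21 and -0.01 in Pdx1cKO mice 1, 2 and 3, against -0.14 and 0.14 in controls 1 and 2, so the groups overlapped. With a constant Myt1 and no Fev, the progenitor stage was carried by Neurog3. Neurog3 alone differed from the median lasting factor by -0.02 on the log2 scale, with 0.07, 0.07 and -0.30 in Pdx1cKO mice and -0.28 and 0.28 in controls. In both forms the Pdx1cKO and control values overlapped, and no p was computed. The standard deviation over the Pdx1cKO mice was 0.14 for the stage difference and 0.21 for Neurog3 against the median lasting factor.

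Other genes of the endocrine pathway were read from the same whole-organ values. Of 11 measured trunk and Notch genes acting upstream of Neurog3, 0 passed over all genes, and the median log2 fold change was -0.21. At an unadjusted limma p under 0.05, 3 of the 11 were lower and 0 higher, beside 5.04% and 5.29% of all genes. The 3 were Sox9, which marks trunk and duct cells, at -0.66, Foxa2, an endoderm factor that islet cells also make, at -0.49, and Nkx6-1, a trunk and beta cell factor, at -0.27, each below both controls in all 3 Pdx1cKO mice. Genes of Neurog3-positive precursors and their early descendants had a median of 0.04 over 13 measured, with 0 past the adjusted threshold. At an unadjusted limma p 0 were lower and 1 of the 13 was higher, near the 5.29% of all genes, namely Mfng, a modifier of Notch signalling, at 0.10. Dll1, the Notch ligand that Neurog3 induces, was at 80.5 in each Pdx1cKO mouse and at 76.8 and 68.7 in controls, a log2 fold change of 0.15, and Btbd17 was at -0.16. Islet subtype factors had a median of -0.13 over 10 measured, with 0 past the adjusted threshold and 3 lower at an unadjusted limma p, namely Pdx1 at -0.91, Nkx6-1, and Irx2 at -0.17. Pax4, a beta and delta cell factor under Neurog3 control, was at 38.1 or 38.2 in every array.

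Islet hormones had a more negative median log2 fold change than the factors, and granule genes one close to it, with no test of either difference. It is unknown which factors lie above background, and the part of signal level in these differences was not tested. Every Pdx1cKO mouse was below both controls in all 7 measured islet hormones. Their median log2 fold change was -1.06, with 7 of 7 lower at an unadjusted limma p under 0.05 and 0 over all genes. Ghrl, Sst and Gcg, which encode ghrelin, somatostatin and glucagon, had log2 fold changes of -1.16, -1.11 and -1.09. Ins2, which encodes insulin, was at -0.49, less negative than Nkx2-2. The median of the factors, which includes the constant Myt1, lay 0.68 above that of the hormones on the log2 scale, by 0.44, 0.61 and 0.97 in Pdx1cKO mice 1, 2 and 3, against 0.01 and -0.01 in the controls. Compared with 16 measured genes of the endocrine granule and its exocytosis, whose median was -0.45, the factors lay 0.07 higher. Of those granule genes 7 were lower and 0 higher at an unadjusted limma p, and 0 passed over all genes. The list ran from -1.22 to 0.48 and included Scg2, a granin, at -0.47, Slc30a8, the zinc transporter of insulin granules, at -0.61, and Scgn, a calcium sensor of islet cells, at -1.16.

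**Figure D3:**
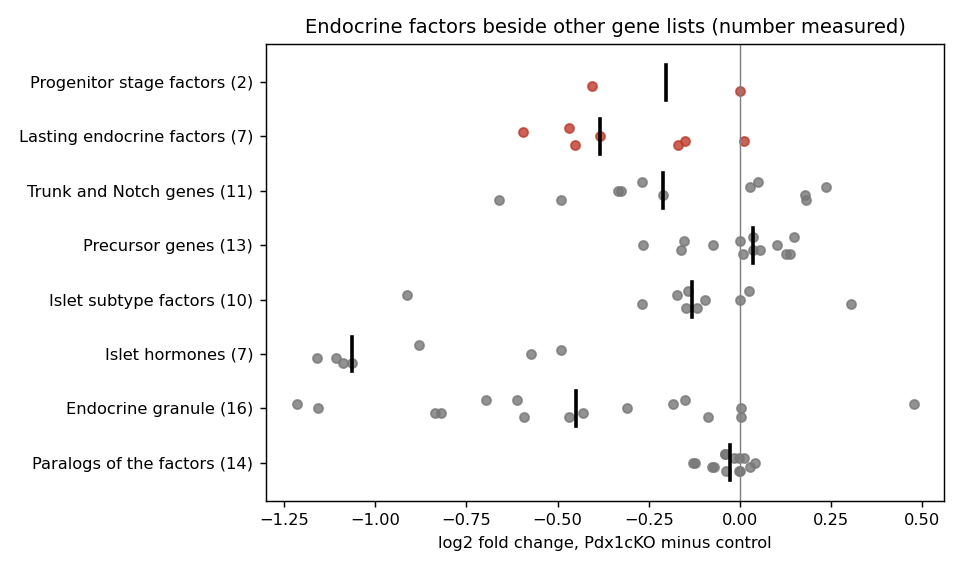
Log2 fold change of every measured gene (points, x axis), Pdx1cKO minus control, in the lists named on the left, with the factors in red and list medians as black bars. Hormones have a median of -1.06 and lasting factors one of -0.38, while paralogs of the factors stay near 0.

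Related genes and a large family of sensory receptors were set beside the factors. The 14 paralogs of the factors with main sites outside the pancreas, such as Pax2, Pax3 and Nkx2-1, had a median log2 fold change of -0.03 and ran from -0.13 to 0.04, and 0 of the 14 were below both controls in all 3 Pdx1cKO mice. The 1027 olfactory receptor genes had a median of -0.02, with a 5th percentile of -0.14, a 95th percentile of 0.02 and the lowest at -0.36, and 162 (15.8%) were below both controls in all 3 Pdx1cKO mice while 6 were above. At an unadjusted limma p, 57 of them were lower and 2 higher, a lean towards lower values that all genes together did not have. The log2 fold changes of Nkx2-2, Pax6 and Rfx6 were more negative than the lowest olfactory receptor gene. Those of Neurog3 and Neurod1 were just below it with both controls but only -0.12 and -0.13 against control 1 alone, and those of Insm1 and St18 lay above it.

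**Figure D4:**
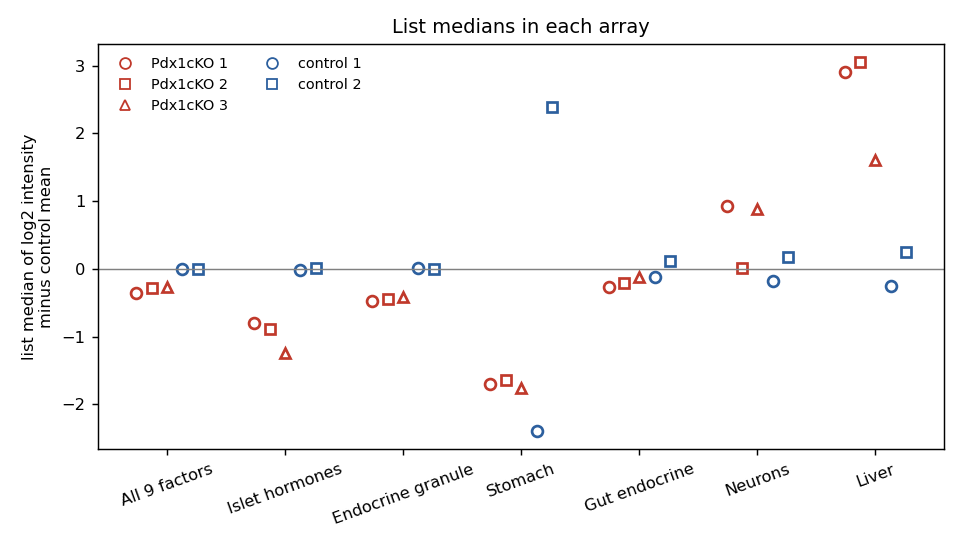
List medians of log2 intensity after subtracting each gene's control mean (y axis), in each Pdx1cKO array (red) and each control array (blue). The factors, hormones and granule genes lie below both controls in all 3 Pdx1cKO mice, the stomach list is high in control 2 alone, and the neuronal list is high in Pdx1cKO mice 1 and 3.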

How the data were processed

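Total RNA of whole pancreas from 3 Pdx1cKO and 2 control mice was hybridised to Mouse Gene 1.0 ST arrays (1 colour, 1 array per mouse). Linear-scale intensities were deposited, which the authors had computed in GeneSpring GX 12.1. For background correction, normalization and probe summary, the method was not stated. Array medians ran from 61.0 to 61.9, so values had been normalized between arrays. Without detection calls it is unknown which factors lie above background, and levels were not compared between probe sets. The number of arrays limits the precision.

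Log2 was taken with no pseudocount. Of 28853 probe sets, 21789 had 1 symbol in the platform annotation and were averaged into 19938 genes. Groups, taken from the sample titles, were compared with limma 3.58.1 (lmFit, eBayes) in R 4.3.3, with Benjamini-Hochberg adjustment over all genes and a threshold of 0.05. The step was tested on simulated data. Python 3.11.15 with pandas 2.3.3 read the files. The members and lists were chosen with earlier results of these data known. All members and Pdx1 were named. The 3 smallest p were named in the lists of endocrine pathway genes, subtype factors, hormones, granule genes and paralogs. Gut endocrine and neuronal markers beside a member (Gast, Hdc, Dbh, Hand2, Ret and Elavl4) did not follow that rule. Pax4 and Ins2 were added after their values were seen. Alternatives covered scaling, filters, pseudocount, probe set choice, eBayes settings, array weights, the methods' t-test, a replicate block, a sex covariate and leaving out each mouse.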

Additional observations from a re-analysis of the deposited data

How the results depend on the processing

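The log2 fold changes of Neurog3, Neurod1, Nkx2-2, Pax6, Rfx6 and St18 were negative under all 16 alternatives run for each; the filter at the median level tested only Isl1 and Insm1 among the factors. Calls depended on the controls. Leaving out a mouse gave 0 to 2072 genes lower and 0 to 1604 higher, with 0 to 3 factors lower, and calls came only without control 1 (3 factors) or control 2 (2 factors), where 1 control is left. By the methods' t-test, adjusted likewise, 7 genes were lower and 3 higher, with 0 factors. At an unadjusted limma p, 3 factors were lower when any Pdx1cKO mouse was left out. The share of all genes at an unadjusted p was not counted in those fits. With the filter at the median level 0 factors were lower, as it tests none of Nkx2-2, Pax6 and Rfx6. Factors with all Pdx1cKO values below the controls numbered 6 to 7 over the left-out mice. Of all genes the share was 11.7% with both controls, 33.3% with control 1 alone and 28.0% with control 2 alone. That share was not counted without a Pdx1cKO mouse. Isl1 changed sign to -0.016 with median scaling and -0.024 with quantile normalization, and ran from -0.11 (without Pdx1cKO mouse 1) to 0.12 over the left-out mice. Insm1 ran from -0.35 to 0.0090 (without control 2). Nkx2-2 passed at -0.50 and -0.69, Pax6 at -0.40 and -0.54 and Rfx6 at -0.52 as the report gives, and Pdx1 passed at -1.28 without control 1. Neurog3 alone against the other factors differed by -0.13, in place of 0.18 for the stages. Taking Myt1 out of the progenitor side gave -0.02 against the lasting factors, and setting it with the others gave -0.13. Factors lay 0.15 above granule genes by means and 0.07 by medians. With the replicate number as a block, 0 genes and 0 factors passed and Neurog3 was at -0.32. Deviations of same-numbered mice correlated at 0.0325 and -0.003. With 2 controls the control deviations mirror each other, so these values cannot show whether the numbers pair the samples. A sex covariate, from Xist, gave Neurog3 at -0.57 and Nkx2-2 at -0.63. The causes were not tested where none is named.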
